A study of Mus musculus with 6 samples.

Results

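The SLC25 genes encode the mitochondrial carrier family, and the members described here are the rows of the expression table whose gene symbol begins with Slc25a followed by a number. They were 46 of 17933 genes, and 40 of them had a mean of at least 1 FPKM (fragments counted per kilobase of transcript, scaled to library size) over the samples and were tested. The choice used the symbol alone and no measured value. Kidney RNA came from 3 stone samples and 3 control samples of male wild-type C57BL/6 mice, 6 to 8 weeks old and 24 to 26 g in weight. Stone mice received glyoxylic acid, an oxalate precursor, at 120 mg/kg into the peritoneum once a day for 12 days, which produces calcium oxalate crystals in the kidney. Control mice received the same volume of saline, and all samples carry the label of day 12. The labels do not say that each sample came from a separate mouse, so the spread behind every p-value here may be technical. RNA of the whole kidney was measured, so fewer cells of a type and less RNA per cell cannot be told apart.

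SLC25 proteins sit mostly in the inner membrane of mitochondria and share a fold made of repeated pairs of membrane helices. Each exchanges or imports a small molecule such as ADP and ATP, phosphate, a carboxylate, an amino acid, a nucleotide or a cofactor, and so joins the matrix to the cytosol. The proximal tubule of the kidney is packed with mitochondria, burns fatty acids and makes glucose, and these carriers supply the substrates and shuttles for that work.

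Stone kidneys had much more RNA of 1 carrier and moderately less of several carriers for carboxylates, glutathione and coenzyme A and of 1 of the 2 carriers for pyrimidine nucleotides. Slc25a24, a calcium-regulated carrier that exchanges ATP-Mg for phosphate, stood at 11.9 ± 1.13 FPKM in stone kidneys and 1.47 ± 0.102 FPKM in control kidneys (SD, n = 3 each). Slc25a21, the carrier of 2-oxoadipate, stood at 3.95 ± 0.649 FPKM in stone kidneys and 9.22 ± 1.497 FPKM in control kidneys. The 2 adenine nucleotide carriers of kidney, Slc25a5 and Slc25a4, the carnitine carrier Slc25a20 and the glycine carrier Slc25a38 did not pass the test. By limma on log2(FPKM + 1), with a Benjamini-Hochberg adjusted p below 0.05 over all 12319 tested genes, 4 members were higher and 12 lower in stone kidneys, 10% and 30% of the 40 tested. Changes given below as a log2 fold change, a rise or a fall are on this scale. Over all tested genes 43.5% were called higher, 13.9% lower and 57.4% either way. The groups did not overlap in 16 tested members, with stone above control in 4 and below it in 12, against 49.8% and 16.5% of all tested genes. Slc25a24 and Slc25a21 were the 2 called members that changed by at least 1 on the log2 scale, a size that 9.31% of all tested genes passed with a call.

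**Figure D1:**
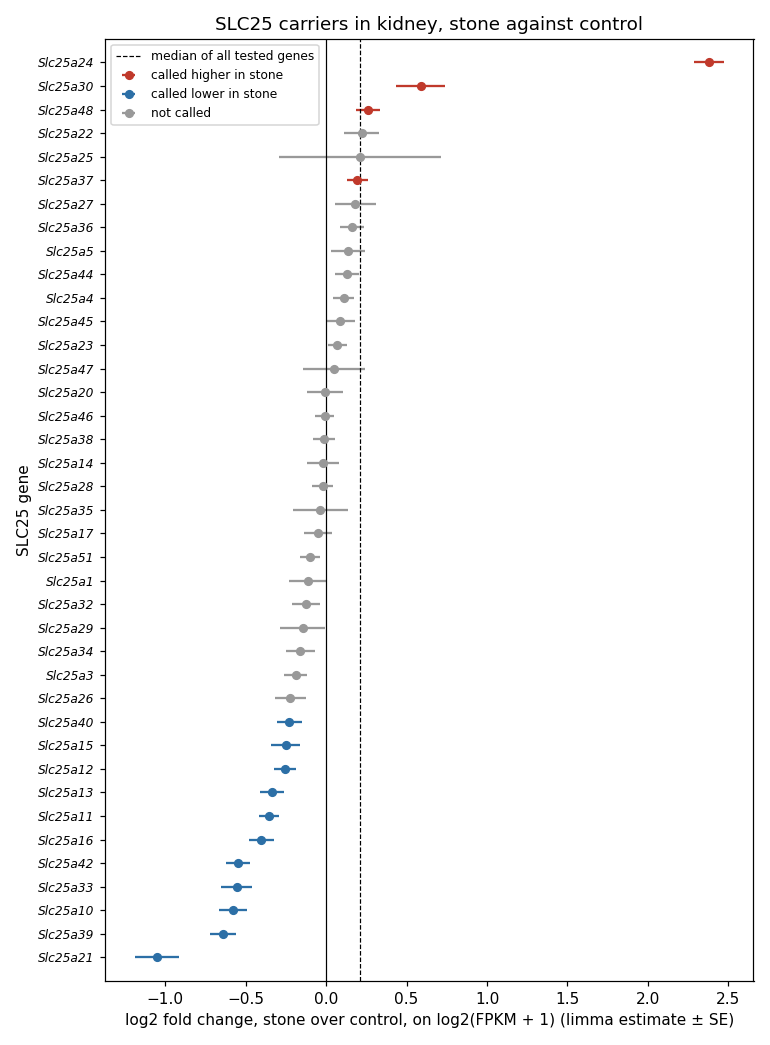
The log2 fold change of stone over control on log2(FPKM + 1) is plotted for 39 of the 40 tested SLC25 genes as the limma estimate with its SE. Red points were called higher, blue points lower and grey points not called, and the dashed line marks the median of all tested genes at 0.21. Slc25a24 lies far to the right at 2.38, and 35 of the 39 points lie left of the dashed line.

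How many carriers counted as higher or lower depended on how samples were scaled to each other. The single transcript Kap made up 1.18 to 2.26% of the FPKM sum in stone kidneys and 19.3 to 23.2% in control kidneys. As deposited, 4 members were higher and 12 lower, but 1 and 21 after median-of-ratios scaling, 3 and 20 after quantile normalization, and 17 and 5 with equal FPKM sums. When the sums were made equal with Kap left out, 2 were higher and 13 lower. Of all tested genes 23.9% were higher and 24.9% lower after median-of-ratios scaling, 22.4% and 25.3% after quantile normalization, and 68.5% and 6.47% with equal FPKM sums. Taken over every tested gene, the median log2 fold change was 0.21 as deposited, and those settings moved it by -0.21, -0.24 and 0.24. Slc25a17, Slc25a28, Slc25a38, Slc25a46 and Slc25a51, which did not pass as deposited, were called lower after median-of-ratios scaling and higher with equal FPKM sums. Against that median the median SLC25 member lay lower by a similar amount throughout, at -0.26 as deposited, -0.28 after median-of-ratios scaling, -0.20 after quantile normalization and -0.26 with equal FPKM sums. Of the 40 members, 36 were below the median of all genes as deposited and 32 to 36 under those 3 scalings. Slc25a24 was called higher, and Slc25a21, Slc25a39, Slc25a10, Slc25a33 and Slc25a42 were called lower, under each of the 13 alternative settings. The other 10 calls were each lost under at least 1 setting, and 0 of the 16 turned into a call in the other direction.

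The promoters of these 6 carriers are shown because their calls did not depend on any setting tried. They are the 250 bases before the RefSeq start (GRCm38.p6), read 5′ to 3′ on the strand of the gene, and for Slc25a21 the more upstream of its 2 starts is given. For Slc25a39 the listed start lies inside the RefSeq gene span, which reaches further upstream, so its window lies within that span. The bases after the Slc25a10 start were not found in a GENCODE transcript of that gene, unlike those of the other starts shown. RefSeq promoters were matched for 35 of the 46 members. Capitals mark matches, on either strand, to the GC box with the letters GGGCGG, to the motif CCAAT that is named after its letters, or to the E-box with the letters CACGTG.
Slc25a24, chr3:109122899-109123148, plus strand: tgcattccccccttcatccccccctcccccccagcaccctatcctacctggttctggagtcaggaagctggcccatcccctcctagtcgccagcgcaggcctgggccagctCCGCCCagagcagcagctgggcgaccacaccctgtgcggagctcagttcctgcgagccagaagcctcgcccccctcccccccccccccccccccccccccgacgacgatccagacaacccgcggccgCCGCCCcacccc
Slc25a21, chr12:57197473-57197722, minus strand: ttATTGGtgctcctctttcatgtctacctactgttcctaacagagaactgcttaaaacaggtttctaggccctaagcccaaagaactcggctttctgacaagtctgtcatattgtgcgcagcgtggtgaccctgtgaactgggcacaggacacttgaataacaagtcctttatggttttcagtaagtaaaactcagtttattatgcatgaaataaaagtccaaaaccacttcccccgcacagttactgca
Slc25a39, chr11:102407518-102407767, minus strand: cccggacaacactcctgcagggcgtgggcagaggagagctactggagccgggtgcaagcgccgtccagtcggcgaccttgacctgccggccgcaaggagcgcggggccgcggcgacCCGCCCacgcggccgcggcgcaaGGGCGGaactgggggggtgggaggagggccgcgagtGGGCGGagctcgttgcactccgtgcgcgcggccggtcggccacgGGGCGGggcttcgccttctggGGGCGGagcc
Slc25a10, chr11:120491587-120491836, plus strand: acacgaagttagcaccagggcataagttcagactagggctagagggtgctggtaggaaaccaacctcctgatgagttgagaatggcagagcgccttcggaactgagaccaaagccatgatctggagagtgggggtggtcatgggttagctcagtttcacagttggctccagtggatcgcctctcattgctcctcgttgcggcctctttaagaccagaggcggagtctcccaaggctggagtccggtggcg
Slc25a33, chr4:149774268-149774517, minus strand: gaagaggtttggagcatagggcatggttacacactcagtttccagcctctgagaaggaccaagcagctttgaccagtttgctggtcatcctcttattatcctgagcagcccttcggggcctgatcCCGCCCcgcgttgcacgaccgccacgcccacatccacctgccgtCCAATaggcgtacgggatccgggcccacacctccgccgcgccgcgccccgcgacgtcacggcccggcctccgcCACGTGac
Slc25a42, chr8:70212282-70212531, minus strand: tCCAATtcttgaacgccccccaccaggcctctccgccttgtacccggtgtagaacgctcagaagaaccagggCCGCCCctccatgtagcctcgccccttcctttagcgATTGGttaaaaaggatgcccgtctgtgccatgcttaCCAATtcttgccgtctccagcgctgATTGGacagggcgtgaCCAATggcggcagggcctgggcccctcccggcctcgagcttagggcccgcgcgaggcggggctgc
None of the marked matches in these 6 windows overlap. The windows of Slc25a39 and Slc25a42 held the most marked letters, with 5 GC boxes and with 5 CCAAT boxes and 1 GC box. Slc25a24 had 2 GC boxes, Slc25a33 had 1 match to each of the 3 motifs, Slc25a21 had 1 CCAAT box and Slc25a10 had no match. Of all 32851 promoter windows of this length, 32.7% held a GC box, 33.8% a CCAAT box and 6.02% an E-box. Of the 45 SLC25 windows counted, 71.1%, 46.7% and 17.8% did. Windows of some matched members may be left out of these 45 but kept among the 32851, so the shares may rest on unlike sets. Both strands were also searched for CCGGAAG of ETS factors, TGANTCA of AP-1, TGACGTCA of CREB and AAGGTCA of nuclear receptors, and these letters were not in the 6 windows shown. These letters stood in 6.91%, 6.75%, 1.55% and 4.08% of all windows, and in 11.1%, 4.44%, 4.44% and 2.22% of the 45 SLC25 windows counted.

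Levels spanned a 1010-fold range between the most and the least abundant tested member, and 3 carriers made up most of the family's RNA. Slc25a5, Slc25a3 and Slc25a39 together gave 62.6%, 61.3% and 60.1% of the summed SLC25 FPKM in stone samples 1 to 3, and 62.6%, 62.0% and 60.3% in control samples 1 to 3. The sum over all 46 members was 3585, 3408 and 3218 FPKM in stone samples 1 to 3 and 3577, 3972 and 3557 FPKM in control samples 1 to 3. These sums overlapped between groups (two-sided exact permutation test, p = 0.3, where 3 against 3 cannot go below 0.1). As a share of all FPKM the sum was 0.557 ± 0.0282% in stone and 0.499 ± 0.0266% in control kidneys, but with Kap left out of the total it was 0.566 ± 0.0282% in stone and 0.631 ± 0.0186% in control kidneys. The direction of the summed level therefore turned with the total used, and each share had p = 0.1 in the exact permutation test, the smallest it can give. Of the tested members, 6 averaged at least 100 FPKM, 24 lay between 10 and 100 and 10 lay between 1 and 10.

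**Figure D2:**
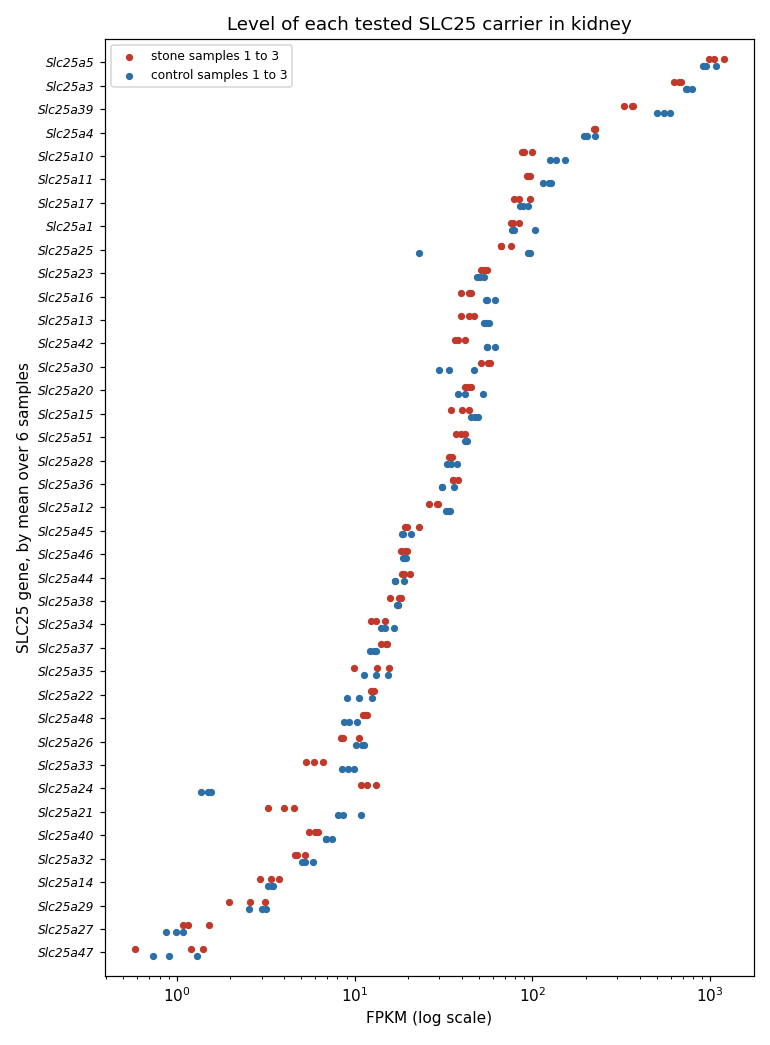
FPKM on a log scale is plotted for 39 of the 40 tested SLC25 genes in each stone sample (red) and control sample (blue), ordered by the mean over all 6 samples. Slc25a5 leads at 1029 FPKM on average, 1 control point of Slc25a25 lies far below the rest of its row, and the stone points of Slc25a24 lie far right of its control points.

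The carriers of ADP, ATP and phosphate were the most abundant and 0 of the 3 tested passed. Slc25a5, the ADP/ATP carrier of growing and epithelial cells, had 1195.41, 1056.19 and 978.46 FPKM in stone samples 1 to 3 and 951.71, 1080.96 and 909.5 FPKM in control samples 1 to 3. Slc25a4, the ADP/ATP carrier best known from heart and muscle, had 223.86, 224.43 and 220.54 FPKM in stone samples and 194.55, 223.39 and 202.89 FPKM in control samples. Both overlapped between groups, with log2 fold changes of 0.13 (SE 0.105) and 0.11 (SE 0.068), and both were called higher with equal FPKM sums, at 0.41 and 0.39. Slc25a4 was also called higher after quantile normalization, at 0.24, and stood at -0.12 after median-of-ratios scaling. The ratio of Slc25a4 to Slc25a5 within a sample, which scaling of samples hardly changes, was -2.26 ± 0.137 in stone and -2.24 ± 0.069 in control kidneys on the log2 scale. Slc25a3, which imports phosphate and copper, had 687.9, 665.95 and 627.64 FPKM in stone samples and 735.67, 791.97 and 731.47 FPKM in control samples. Its stone values all lay below its control values, but the log2 fold change of -0.19 (SE 0.071) missed the threshold (limma, adjusted p = 0.055). Slc25a3 was called lower after median-of-ratios scaling, at -0.42, after quantile normalization, at -0.23, and with equal FPKM sums without Kap. It stood at 0.09 with equal FPKM sums, and had a limma adjusted p of 0.0078 to 0.232 over the alternatives. Slc25a4 and Slc25a5 are closely related paralogs, so reads may have been split between them. Slc25a31, the ADP/ATP carrier of male germ cells, was listed at 0 in all samples except control sample 1, with 0.08 FPKM.

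The calcium-regulated ATP-Mg carriers, which adjust the adenine nucleotide content of the matrix, held the member that changed most. Slc25a24 (chromosome 3 from 109123149 to 109168409, plus strand, GRCm38.p6) had 10.88, 11.69 and 13.12 FPKM in stone samples 1 to 3 and 1.56, 1.36 and 1.49 FPKM in control samples 1 to 3. All 3 stone values lay far above all 3 control values, and the mean FPKM was 8.09 times that of control kidneys. In log2 units it was up by 2.38 (SE 0.093; limma, adjusted p = 1.24e-05), position 70 from the top and 23 by p among the 12319 genes. Over the 13 alternatives this Slc25a24 change lay between 2.04 and 2.93. Slc25a23, a calcium-binding relative, had 55.51, 53.29 and 51.32 FPKM in stone samples and 53.04, 48.79 and 50.61 FPKM in control samples, which overlapped (limma, adjusted p = 0.349). On log2(FPKM + 1), Slc25a23 exceeded Slc25a24 within a sample by 2.08 ± 0.181 in stone kidneys and by 4.39 ± 0.015 in control kidneys. The added 1 narrows this gap most in control kidneys, where Slc25a24 averaged 1.47 FPKM.

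Slc25a25, the remaining ATP-Mg carrier with appreciable RNA, was set apart by 1 control sample. It had 75.46, 66.79 and 66.2 FPKM in stone samples 1 to 3 and 23.08, 94.63 and 96.46 FPKM in control samples 1 to 3. Control sample 1 lay below every stone sample while control samples 2 and 3 lay above them, and the gene did not pass (log2 fold change 0.21, SE 0.502, limma, adjusted p = 0.737). Without control sample 1 the log2 fold change of Slc25a25 was -0.46 and was called (limma, adjusted p = 0.00739, range over the alternatives 0.00739 to 0.98), so this library decides the direction. By a measure chosen after the values were seen, the number of the 12319 tested genes in which a sample lay below 1/3 of the lower of its 2 fellow samples was 86, 6 and 3 for stone samples 1 to 3 and 39, 17 and 11 for control samples 1 to 3. Slc25a41, the last of the group, was listed at 0 in all samples except stone sample 3, with 0.21 FPKM.

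Markers of macrophages, fibroblasts and dividing cells rose beside Slc25a24. Of 5 macrophage markers 4 rose, with summed levels of 118.7 to 221.4 FPKM in stone and 50.31 to 55.29 FPKM in control samples, and Csf1r did not pass. All 4 markers of fibroblasts and myofibroblasts rose, with sums of 77.25 to 130.9 FPKM in stone and 21.68 to 30.55 FPKM in control samples. Both markers of dividing cells, Mki67 and Top2a, rose, with sums of 7.77 to 9.2 FPKM in stone and 0.66 to 1.31 FPKM in control samples. None of these markers was at 0 in any group. The part of these cells in the Slc25a24 values was not tested.

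Carriers of di- and tricarboxylates fell in 3 of 4 members, with a median log2 fold change of -0.47. Slc25a10, which exchanges malate or succinate for phosphate, had 98.83, 89.68 and 86.93 FPKM in stone samples and 135.04, 152.27 and 126.06 FPKM in control samples. The groups did not overlap, and Slc25a10 fell by 0.58 on the log2 scale (SE 0.087; limma, adjusted p = 0.00149). Slc25a11, the 2-oxoglutarate/malate carrier of the malate-aspartate shuttle, had 93.29, 97.14 and 94.91 FPKM in stone samples and 123.72, 127.32 and 114.65 FPKM in control samples. It fell by 0.35 (limma, adjusted p = 0.00262), a call lost with equal FPKM sums, at -0.08. Slc25a21, whose substrate 2-oxoadipate arises from lysine and tryptophan breakdown, had 4.55, 4.03 and 3.26 FPKM in stone samples and 8.1, 10.92 and 8.64 FPKM in control samples. The stone samples all lay below the control samples. The Slc25a21 mean in stone kidneys was 0.428 times that of control kidneys, the lowest ratio of any tested member, and the gene fell by 1.05 on the log2 scale (SE 0.138; limma, adjusted p = 0.000838). Slc25a1, the citrate exporter that feeds lipid synthesis, had 77.86, 75.92 and 83.9 FPKM in stone samples and 79.11, 103.31 and 76.98 FPKM in control samples. These overlapped and did not pass (limma, adjusted p = 0.425).

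Enzymes that make or use the same carboxylates gave a mixed picture. Of 8 listed enzymes 1 was higher and 2 lower as deposited, 1 and 6 after median-of-ratios scaling, and 3 and 0 with equal FPKM sums. Pck2, the mitochondrial phosphoenolpyruvate carboxykinase, had 10.2 ± 0.786 FPKM in stone and 5.49 ± 0.220 FPKM in control kidneys and was called under each of the 13 alternatives. The 2-oxoglutarate dehydrogenase gene Ogdh fell by 0.19. That call was lost after quantile normalization, with equal FPKM sums and with replicate number as a block. It was also lost when any 1 stone sample or control sample 2 was left out. The pyruvate carrier gene Mpc1, which belongs to another family, had 451 ± 13.8 FPKM in stone and 802.5 ± 76.2 FPKM in control kidneys. Of the 11 listed inner membrane transporters outside SLC25, 3 were higher and 5 lower as deposited, 1 and 7 after median-of-ratios scaling. Besides Mpc1 these included Letm1, an ion exchanger gene that fell by 0.64 and was called under each of the 13 alternatives, and Micu2, a calcium uniporter regulator gene that fell by 0.39 and was lost with equal FPKM sums.

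Aspartate and glutamate carriers were lower in both of the aspartate exporters. Slc25a13, the calcium-binding aspartate/glutamate carrier citrin, had 46.72, 43.83 and 39.68 FPKM in stone samples and 53.47, 56.8 and 54.61 FPKM in control samples. Slc25a12, its relative aralar, had 28.93, 29.43 and 26.05 FPKM in stone samples and 32.76, 34.46 and 33.99 FPKM in control samples. Neither gene overlapped between groups, and they fell by 0.34 and 0.26 in log2 units (limma, adjusted p = 0.00671 for Slc25a13 and 0.0141 for Slc25a12). Both calls were lost with equal FPKM sums, with Slc25a13 at -0.06 and Slc25a12 at 0.02. The ratio of Slc25a12 to Slc25a13 overlapped between groups, at -0.61 ± 0.059 in stone and -0.69 ± 0.018 in control kidneys on the log2 scale. Slc25a22, a glutamate importer, averaged 12.6 ± 0.255 FPKM in stone and 10.7 ± 1.73 FPKM in control kidneys and did not pass (limma, adjusted p = 0.116). Slc25a22 was called higher with equal FPKM sums, at 0.48, and without control sample 2. Slc25a18, its paralog, was at 0.09 FPKM or less in every sample and was not tested.

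Enzymes of the malate-aspartate shuttle and of glutamate had a median log2 fold change of 0.22 as deposited, against 0.21 for all tested genes. Of 6 listed genes 4 were higher and 1 lower as deposited, but 0 and 2 after median-of-ratios scaling. Of all tested genes 43.5% were higher and 13.9% lower as deposited, and 23.9% and 24.9% after that scaling. The cytosolic malate dehydrogenase gene Mdh1 had 473.5 ± 23.6 FPKM in stone and 730.0 ± 71.8 FPKM in control kidneys, a fall called under each alternative. The cytosolic aspartate aminotransferase gene Got1 rose by 0.32 and the glutamate dehydrogenase gene Glud1 by 0.27, calls that were lost after median-of-ratios scaling, and for Glud1 also without stone sample 2 or control sample 1.

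Slc25a15, which exchanges ornithine and citrulline in the urea cycle, had 44.06, 40.18 and 34.85 FPKM in stone samples and 47.26, 49.21 and 45.28 FPKM in control samples. It fell by 0.25 (limma, adjusted p = 0.0473) without overlap, but the call was lost without stone sample 2 or 3, without any 1 of the control samples, with no filter and with equal FPKM sums. Slc25a29, a carrier of basic amino acids, averaged 2.56 ± 0.590 FPKM in stone and 2.91 ± 0.312 FPKM in control kidneys and did not pass. Slc25a2, another ornithine carrier, reached at most 0.27 FPKM and was not tested. Around these carriers the ornithine and urea cycle enzymes were mixed, with 2 of 6 higher and 3 lower both as deposited and after median-of-ratios scaling. The ornithine decarboxylase gene Odc1 had 212 ± 25.4 FPKM in stone and 764 ± 121 FPKM in control kidneys. The ornithine aminotransferase gene Oat had 123 ± 11.7 and the arginase gene Arg2 29.4 ± 17.7 FPKM in stone kidneys, against 78.3 ± 4.96 and 4.67 ± 0.601 FPKM in control kidneys.

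Glutathione carriers were lower, led by an abundant SLC25 gene. Slc25a39 (chromosome 11 from 102402969 to 102408675, minus strand), which imports glutathione into mitochondria, had 361.9, 365.91 and 328.5 FPKM in stone samples and 551.95, 590.89 and 504.81 FPKM in control samples. No value overlapped, and the stone mean was 0.641 times the control mean. Slc25a39 fell by 0.64 in log2 units (SE 0.082; limma, adjusted p = 0.000763). Its paralog Slc25a40 had 5.51, 5.95 and 6.23 FPKM in stone samples and 6.91, 6.89 and 7.42 FPKM in control samples. Slc25a40 fell by 0.23 (limma, adjusted p = 0.0361) without overlap, but that call was lost without any 1 of the 6 samples. The call was also lost with no filter, with replicate number as a block and with equal FPKM sums, at 0.01. Within a sample Slc25a39 exceeded Slc25a40 by 5.68 ± 0.150 in stone kidneys and 6.09 ± 0.164 in control kidneys on the log2 scale, without overlap.

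Iron carriers changed little. Slc25a37, mitoferrin 1 of red cell precursors, had 14.03, 15.19 and 14.97 FPKM in stone samples and 13.13, 12.23 and 12.85 FPKM in control samples. It rose by 0.20 (limma, adjusted p = 0.0346) without overlap, but stood at -0.02 after median-of-ratios scaling and -0.04 after quantile normalization. Slc25a37 kept its call in 4 of the 13 alternatives and lost it when stone sample 2 or 3 or any 1 control sample was left out. Slc25a28, mitoferrin 2 of other tissues, had 34.54, 33.93 and 35.14 FPKM in stone samples and 37.43, 34.94 and 32.86 FPKM in control samples and did not pass (limma, adjusted p = 0.81). Erythroid markers went the other way from Slc25a37, since all 5 fell, with summed levels of 597.4 to 759.2 FPKM in stone and 2169 to 3169 FPKM in control samples. Slc25a38, which brings in glycine for heme synthesis, averaged 17.3 ± 1.21 FPKM in stone and 17.4 ± 0.107 FPKM in control kidneys (limma, adjusted p = 0.9). Of 7 listed genes for mitochondrial iron and heme, the test called 1 higher and 3 lower, as deposited and after median-of-ratios scaling. The heme synthesis gene Alas1 had 154 ± 10.3 FPKM in stone and 78.9 ± 3.55 FPKM in control kidneys. The iron-sulfur cluster genes Nfs1 and Iscu fell by 0.73 and 0.36, and the Iscu call was lost with equal FPKM sums.

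Pyrimidine nucleotide carriers split. Slc25a33, which moves pyrimidine nucleotides for mitochondrial nucleic acid synthesis, had 6.61, 5.31 and 5.88 FPKM in stone samples and 9.12, 9.9 and 8.5 FPKM in control samples. It fell by 0.56 without overlap (limma, adjusted p = 0.00262). Its relative Slc25a36 had 35.86, 38.35 and 35.71 FPKM in stone samples and 31.09, 31.03 and 36.09 FPKM in control samples, which overlapped, with a log2 fold change of 0.16 (limma, adjusted p = 0.109). Slc25a36 was called higher with equal FPKM sums, at 0.43, and without control sample 3. The ratio of Slc25a33 to Slc25a36 was -2.44 ± 0.184 in stone and -1.73 ± 0.212 in control kidneys on the log2 scale, without overlap. Tfam, the factor that packages and transcribes mitochondrial DNA, had 10.2 ± 0.654 FPKM in stone and 14.7 ± 0.474 FPKM in control kidneys. Of 7 listed regulators of mitochondrial biogenesis 2 were higher and 1 lower as deposited, and 1 and 2 after median-of-ratios scaling. Nrf1, a regulator of nuclear genes for mitochondria, rose by 0.45, a call lost after quantile normalization, and Ppara, a lipid-sensing receptor gene, by 0.50, a call lost after both of these scalings.

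Cofactor carriers fell in 3 of 7 members, and after median-of-ratios scaling in all 7. Slc25a42, which brings coenzyme A into mitochondria, had 41.81, 38.08 and 36.75 FPKM in stone samples and 55.17, 61.7 and 55.19 FPKM in control samples. It fell by 0.55 in log2 units (SE 0.075; limma, adjusted p = 0.00098), and the groups did not overlap. Slc25a16, a relative linked to coenzyme A, had 45.21, 43.93 and 39.43 FPKM in stone samples and 54.53, 55.19 and 61.25 FPKM in control samples, a fall of 0.40 (limma, adjusted p = 0.00393) that was lost with equal FPKM sums, at -0.13. The ratio of Slc25a42 to Slc25a16 overlapped between groups.

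The other cofactor carriers did not pass as deposited. Slc25a26, the S-adenosylmethionine carrier, averaged 9.17 ± 1.17 FPKM in stone and 10.8 ± 0.575 FPKM in control kidneys. Slc25a32, linked to folate and FAD, averaged 4.85 ± 0.340 FPKM in stone and 5.39 ± 0.422 FPKM in control kidneys. Slc25a51, the NAD carrier, averaged 39.5 ± 2.37 FPKM in stone and 42.4 ± 0.552 FPKM in control kidneys. Slc25a17, a member that sits in peroxisomes, averaged 86.6 ± 8.96 FPKM in stone and 89.6 ± 4.74 FPKM in control kidneys. With equal FPKM sums Slc25a17 and Slc25a51 were called higher instead, at 0.23 and 0.17.

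Most enzymes listed for making or using these cofactors were lower too. Of 8 listed genes 2 were higher and 5 lower, both as deposited and after median-of-ratios scaling. The coenzyme A synthase gene Coasy had 63.8 ± 4.72 FPKM in stone and 141 ± 8.84 FPKM in control kidneys. The mitochondrial serine hydroxymethyltransferase gene Shmt2 had 62.1 ± 2.16 FPKM in stone and 139.5 ± 12.0 FPKM in control kidneys. Both falls were called under each of the 13 alternatives.

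Slc25a20, which carries acylcarnitines into mitochondria for oxidation, had 44.97, 41.97 and 43.29 FPKM in stone samples and 41.67, 52.36 and 37.98 FPKM in control samples. The groups overlapped and the log2 fold change was -0.01 (SE 0.114; limma, adjusted p = 0.964), though the gene was called higher with equal FPKM sums, at 0.27. Of 6 listed genes of the carnitine shuttle, the 5 enzymes fell as deposited and the cell-surface carnitine transporter gene Slc22a5 did not pass, while all 6 were lower after median-of-ratios scaling and 3 when FPKM sums were made equal. Crot, the peroxisomal carnitine octanoyltransferase gene, had 85.4 ± 10.5 FPKM in stone and 295 ± 7.72 FPKM in control kidneys. Cpt2, the inner membrane carnitine palmitoyltransferase gene, had 67.2 ± 5.22 FPKM in stone and 118.5 ± 12.9 FPKM in control kidneys. Crat, the carnitine acetyltransferase gene, fell by 0.38, a call lost with equal FPKM sums.

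Control sample 2 was the highest control for Slc25a20 and Slc25a1, and also for many other members, among them Slc25a5, Slc25a3 and Slc25a39. This sample and stone sample 3 held RNA of fat cells. The 4 markers of brown and white fat summed to 0.13, 0.1 and 41.39 FPKM in stone samples 1 to 3 and to 0.15, 98.47 and 0 FPKM in control samples 1 to 3, and 0 of the 4 passed the test. Ucp1, the uncoupling protein of brown fat and itself a protein of the carrier fold, had 0.05, 0.1 and 0.86 FPKM in stone samples and 0, 37.03 and 0 FPKM in control samples. The part of fat in the carrier values was not tested. Without control sample 2, 3 members were called higher and 9 lower. Leaving out stone sample 3 instead gave 2 higher and 9 lower.

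Among the uncoupling-protein-like members, Slc25a30, named kidney mitochondrial carrier protein 1, rose. It had 57.87, 56.28 and 51.17 FPKM in stone samples and 34.04, 29.88 and 46.99 FPKM in control samples, which did not overlap although control sample 3 came close. It was higher by 0.59 in log2 units (SE 0.154; limma, adjusted p = 0.0149). The call was lost after median-of-ratios scaling, at 0.36, and without control sample 1, at 0.54, with adjusted p from 0.00133 to 0.0855 over the alternatives (limma). Slc25a14, a relative also found in brain, averaged 3.36 ± 0.416 FPKM in stone and 3.40 ± 0.119 FPKM in control kidneys, and the ratio of Slc25a30 to Slc25a14 was 3.69 ± 0.155 in stone and 3.09 ± 0.316 in control kidneys on the log2 scale. Slc25a27, a brain member of the group, was near the limit for testing at 1.25 ± 0.236 FPKM in stone and 0.98 ± 0.105 FPKM in control kidneys. Of the carrier-fold genes with other symbols, Mtch2, an outer membrane protein insertase, fell by 0.35 on the log2 scale, with means of 105 FPKM in stone and 135 FPKM in control kidneys. Its relative Mtch1 had 114 ± 1.56 FPKM in stone and 93.5 ± 7.66 FPKM in control kidneys and rose by 0.28. The Mtch2 call was lost with equal FPKM sums and the Mtch1 call after median-of-ratios scaling.

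**Figure D3:**
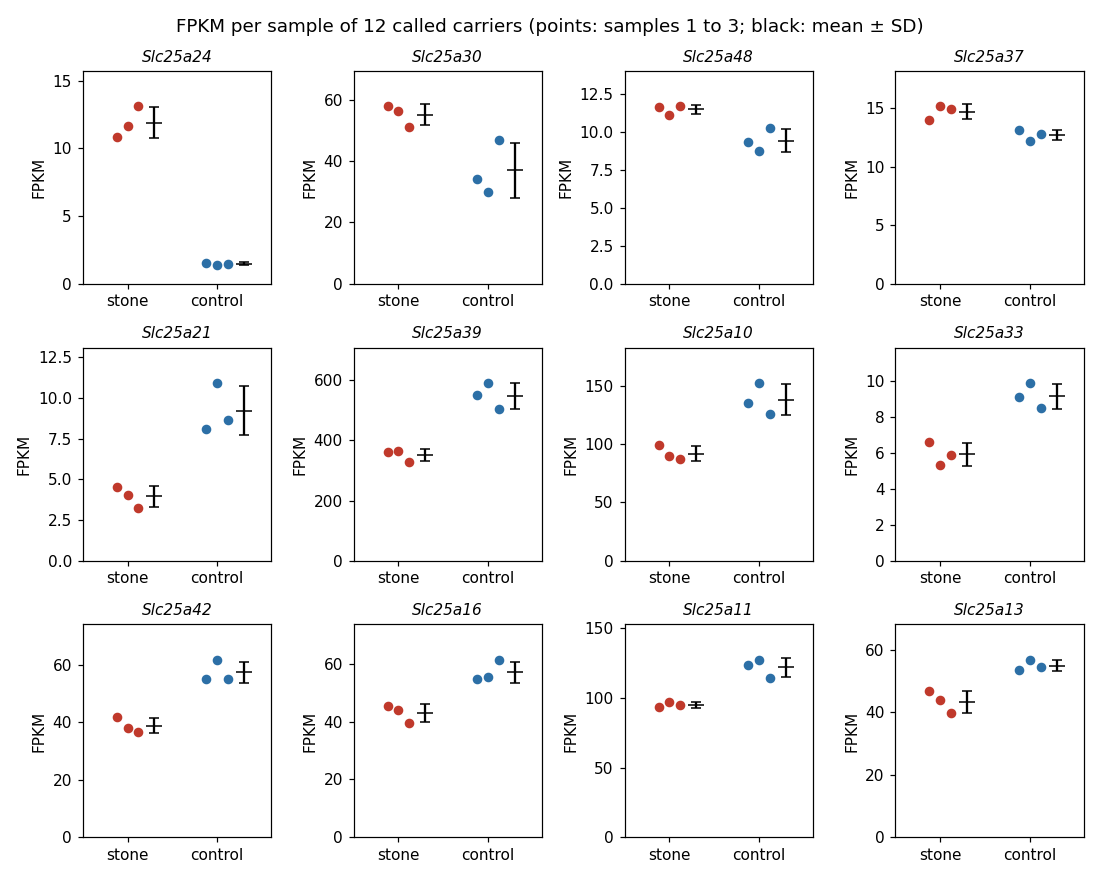
FPKM on a linear axis from 0 is plotted for 12 called SLC25 genes, with stone samples 1 to 3 in red, control samples 1 to 3 in blue and the mean with its SD in black. Stone points of Slc25a24 lie at 10.88 to 13.12 FPKM against 1.36 to 1.56 FPKM in control samples, while the 8 genes from Slc25a21 on have all stone points under all control points.

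Of the members with no substrate given here by class, Slc25a48, reported to carry choline, had 11.64, 11.14 and 11.71 FPKM in stone samples and 9.32, 8.73 and 10.28 FPKM in control samples. It rose by 0.26 without overlap (limma, adjusted p = 0.0218), but stood at 0.05 after median-of-ratios scaling and -0.01 after quantile normalization and was lost under 8 of the 13 alternatives, among them leaving out any 1 stone sample or control sample 1 or 2. Slc25a34, Slc25a35 and Slc25a45 averaged 13.5 ± 1.28, 12.99 ± 2.87 and 20.7 ± 2.12 FPKM in stone kidneys, against 15.2 ± 1.28, 13.2 ± 2.04 and 19.4 ± 1.29 FPKM in control kidneys, and did not pass. Slc25a47, a carrier best known from liver, averaged 1.06 ± 0.428 FPKM in stone and 0.973 ± 0.287 FPKM in control kidneys. Slc25a44, the branched-chain amino acid carrier, averaged 19.2 ± 1.01 FPKM in stone and 17.5 ± 1.201 FPKM in control kidneys, and the outer membrane member Slc25a46 averaged 19.02 ± 0.787 FPKM in stone and 19.1 ± 0.374 FPKM in control kidneys. Neither passed as deposited. Slc25a43 had 0.89, 1.03 and 0.84 FPKM in stone samples and 0.74, 0.19 and 0.42 FPKM in control samples, which did not overlap but lay below the limit for testing. Slc25a53, also untested, reached at most 0.36 FPKM. Over all 24 tested members that did not pass, log2 fold changes lay between -0.22 and 0.22.

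Ratios of related carriers within a sample, taken on FPKM + 1, are nearly free of how samples are scaled, less so at low FPKM. Of 12 such ratios, 6 did not overlap between groups. These were Slc25a23/Slc25a24, Slc25a24/Slc25a25, Slc25a33/Slc25a36, Slc25a30/Slc25a14, Slc25a39/Slc25a40 and Slc25a28/Slc25a37, with differences of -2.31, 2.17, -0.72, 0.60, -0.41 and -0.22 on the log2 scale (stone minus control). Each had p = 0.1 by the two-sided exact permutation test, the smallest that 3 against 3 samples can give, or 0.2 adjusted over the 12 pairs. The 3 pairs among Slc25a23, Slc25a24 and Slc25a25 share members, and pairs with an untested member were left out. Of the 12319 tested genes, 66.3% had groups that did not overlap in their own FPKM.

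**Figure D4:**
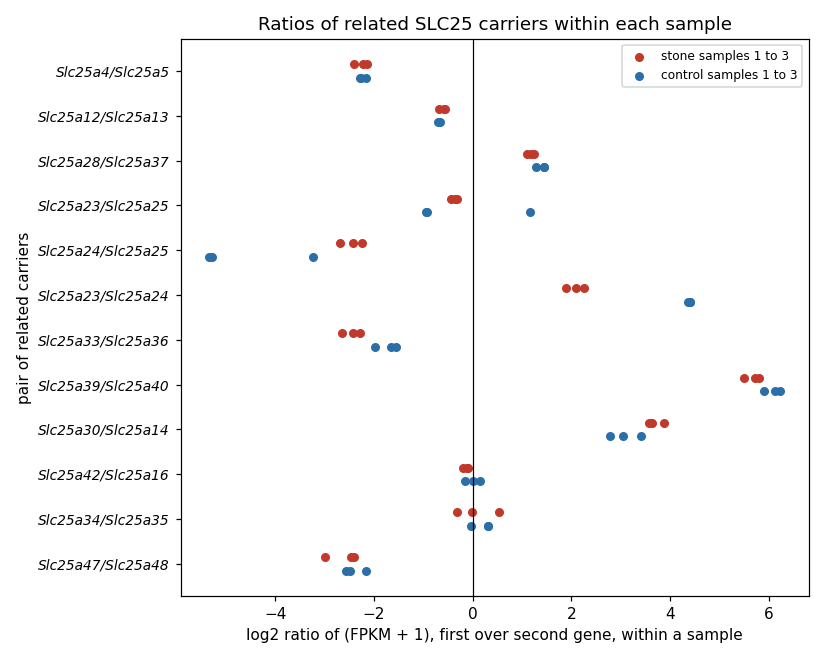
The log2 ratio of (FPKM + 1) of the first over the second gene is plotted within each stone sample (red) and control sample (blue) for 12 pairs of related SLC25 genes. The Slc25a23/Slc25a24 ratio lies at 1.89 to 2.25 in stone samples and 4.37 to 4.4 in control samples, while 1 control point stands apart in both pairs with Slc25a25.

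Other genes for mitochondria give the setting for these values. Of 82 tested nuclear-encoded subunits of oxidative phosphorylation, 3 rose and 59 fell as deposited, 1 and 69 after median-of-ratios scaling, and 7 and 23 with equal FPKM sums. Their median log2 fold change was -0.37, against -0.04 for the 40 SLC25 members and 0.21 for all tested genes, and the difference between the lists was not tested. The complex I gene Ndufs1 fell by 0.64 and the complex III gene Uqcrfs1 by 0.58. Cox6b2, a complex IV subunit best known from testis, rose by 2.30, to 38.1 ± 1.55 FPKM in stone kidneys, against 6.94 ± 0.851 FPKM in control kidneys. As deposited, 43.5% of all tested genes were higher and 13.9% lower. These shares were 23.9% and 24.9% after median-of-ratios scaling, and 68.5% and 6.47% with equal FPKM sums. The machinery that inserts SLC25 proteins into the membrane had 0 higher and 3 lower of 13 genes as deposited, 0 and 8 after median-of-ratios scaling, and 6 and 0 with equal FPKM sums. The 3 were the small Tim chaperone genes Timm8a1, Timm8b and Timm9, which fell by 0.30, 0.27 and 0.22, and each of these calls was lost with equal FPKM sums and without stone sample 2. The Timm8b and Timm9 calls were also lost without stone sample 3, control sample 1 or control sample 2. That of Timm9 was lost without stone sample 1, and that of Timm8b after quantile normalization. Of 3 outer membrane channel genes Vdac1 fell by 0.17, a call lost under 10 of the 13 alternatives, among them leaving out any 1 sample.

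The kidney label was matched by its markers, all of which were above 0 in both groups. Of 8 proximal tubule markers 1 rose and 3 fell, with summed levels of 2883 to 3471 FPKM in stone and 3844 to 4340 FPKM in control samples. Slc34a1 was the largest part of these sums, at 1661 ± 247.9 FPKM in stone and 2617 ± 219.5 FPKM in control kidneys. The median log2 fold change of the 8 markers was 0.00656. Of 4 thick limb markers 2 fell, with sums of 1092 to 2004 FPKM in stone and 1832 to 2216 FPKM in control samples. Of 6 markers of distal tubule and collecting duct 1 rose and 3 fell, with sums of 487.7 to 693.1 FPKM in stone and 502.8 to 531.2 FPKM in control samples. Of 4 endothelial markers 2 rose, and of 2 podocyte markers 1 rose. The part of these cell types in the carriers that fell was not tested. Of the 46 members, 14 share exonic bases with another annotated gene, among them Slc25a10, Slc25a11, Slc25a21, Slc25a25, Slc25a33 and Slc25a37 with a gene on the opposite strand, so their reads may be shared if strand was not used in counting.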

How the data were processed

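Whole kidney RNA of 3 stone and 3 control samples was extracted with TRIzol and made into dUTP-marked libraries, per the labels' protocols. The submitters' processing notes name HISAT2 2.0.4 and GRCm38.p6. For the fragment counting, its annotation and its use of strand, the tool and settings were not given in the sources used here. As for units, the authors deposited 1 table of FPKM values with 1 column per sample. FPKM hold no counts, so sequencing depth is unknown, no counting intervals can be given and no count model was used.

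The 12319 of 17933 genes whose mean over all samples reached 1 FPKM were tested. Values were transformed to log2(FPKM + 1), which understates the change of low genes, and stone was compared with control by limma 3.58.1 in R 4.3.3 (lmFit, eBayes with a trend), two-sided, calling adjusted p below 0.05 (Benjamini-Hochberg, 12319 genes). FPKM sums ran from 609705 to 613885 in stone and from 711768 to 758514 in control samples. Correlations of log2(FPKM + 1) between samples were 0.979 to 0.991 within and 0.931 to 0.95 across groups. The fit was tested on simulated data. Alternatives were a pseudocount of 0.1, no filter, median-of-ratios scaling, quantile normalization, equal FPKM sums, a replicate block and leaving out each sample. Equal FPKM sums without Kap was added after the data were seen. Motifs were searched in RefSeq promoters of GRCm38.p6, and exon overlaps were taken from GENCODE M21. The family, the related lists and the named-gene rule (up to 8 members with the largest change in each direction, the 5 most abundant, members of ratios without overlap, and up to 3 called genes with the smallest p of each list) were chosen with earlier results of these data known. Other members given by their values, and Csf1r, Ucp1, Slc22a5 and Slc34a1, were named after their values were seen. Otc, of the ornithine list, was not analysed here. Of the 40 tested members 1, and some genes of the related lists, enter the counts but are not reported here by name.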

Additional observations from a re-analysis of the deposited data

How the results depend on the processing

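Scaling moved the counts of calls. Over all tested genes, 5356 were higher and 1711 lower as deposited, 2948 and 3064 after median-of-ratios scaling (49.0% of calls higher, against 75.8% as deposited), 2763 and 3111 after quantile normalization, and 8440 and 797 with equal FPKM sums (91.4%). SLC25 members called higher numbered 1 after median-of-ratios scaling, 17 with equal FPKM sums and 2 with equal FPKM sums without Kap, against 4 as deposited. SLC25 members called lower numbered 21, 20 and 5 after median-of-ratios scaling, quantile normalization and equal FPKM sums, against 12. Leaving out 1 sample at a time gave 1 to 4 members higher and 9 to 11 lower, with 1 higher without control sample 1, 2 without stone sample 2 and 2 without stone sample 3. The cause was not tested. The SLC25 summed FPKM differed (stone minus control) by -298.3 FPKM as deposited and by 393.3 FPKM with equal FPKM sums, and by -388.9 to -163.5 FPKM when 1 sample was left out. With equal FPKM sums the sign turned for Slc25a12 (0.0158), Slc25a15 (0.0224) and Slc25a40 (0.0141), which lost their calls, and for Slc25a17 (0.23), Slc25a20 (0.27), Slc25a28 (0.25), Slc25a38 (0.25), Slc25a46 (0.26) and Slc25a51 (0.17), which were then called higher. The sign also turned for Slc25a1 (0.163), Slc25a3 (0.0905), Slc25a14 (0.198) and Slc25a26 (0.0326), called in neither setting. The same held for Slc25a29 (0.0591), Slc25a32 (0.108), Slc25a34 (0.102) and Slc25a35 (0.224). Slc25a37 turned to -0.0229 after median-of-ratios scaling and -0.0443 after quantile normalization, Slc25a48 to -0.0125 after quantile normalization, and Slc25a25 lay between -0.456 without control sample 1 and 0.552 without control sample 3. With replicate number as a block, 3 members were higher and 10 lower. Deviations of same-numbered samples correlated at 0.0075, -0.22 and -0.0397, and those of samples with unlike numbers at -0.0741 to 0.161. With 3 samples per group, these values cannot show whether same-numbered samples share more than a number. Depth is unknown, which limits what can be said of members below 1 FPKM.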
